A study of Homo sapiens with 16 samples.

Results

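The genes described here are 6 kallikrein-related peptidases, KLK5, KLK6, KLK7, KLK8, KLK10 and KLK11, found by gene symbol among the 59428 genes of a count table from ovarian cancer cells. All 6 symbols were present. OVCAR3 is a high-grade serous ovarian carcinoma line with intact BRCA1, and UWB1.289 is an ovarian carcinoma line deficient in BRCA1. OVCAR3 was given olaparib, an inhibitor of the DNA repair enzyme PARP, at 7.5 µM in DMSO for 96 h, UWB1.289 was given 3.5 µM for the same 96 h, and DMSO alone was the control of each line. Each of the 4 groups had 4 libraries, 16 in all. Each BRCA1 status was represented by a single line grown in its own medium, so line, BRCA1 status and medium cannot be told apart, and the doses differed as well.

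Kallikrein-related peptidases are secreted serine proteases. They are made as inactive precursors, which are activated by other proteases or by one another, and their genes lie side by side in a single cluster. In skin they cut the junctions between surface cells. In the ovary several of them are known as products of serous carcinoma, shed into ascites and serum, and they can cleave adhesion proteins and protease-activated receptors.

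The libraries held between 5599571 and 7730228 counts. The QuantSeq kit samples only the 3′ end of each transcript, so a gene's counts are not divided by its length, and levels are compared here between libraries and not between genes. EPCAM, KRT7, KRT8, KRT18 and PAX8 were abundant in both lines (between 276 and 4190 mean CPM, counts scaled to library size with TMM factors). Between the lines with DMSO, 4 of 8 epithelial markers were higher in UWB1.289 and 4 lower, at an edgeR adjusted p below 0.1. EPCAM (1.74-fold), KRT7 (4.08-fold), KRT8 (1.34-fold) and KRT18 (2.34-fold) were higher. PAX8 (0.644 of the OVCAR3 level), CDH1 (23.4 against 113 mean CPM) and MUC16 (36.4 against 209) were lower. WT1, a marker of serous carcinoma, was at 121 ± 7.07 CPM (SD, n = 4) in OVCAR3 with DMSO and had 0 counts in UWB1.289 with DMSO. The labels name no separate cultures, so the p-values measure the spread between these libraries, which may be technical.

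On the hg38 build the 6 genes lie on chromosome 19, all on the minus strand, within 84.7 kb of the 265.1 kb that the 16 kallikrein genes span. KLK5 is at chr19:50943303-50953093, KLK6 at chr19:50958631-50969673, KLK7 at chr19:50976468-50984099, KLK8 at chr19:50996007-51002711, KLK10 at chr19:51012739-51020175 and KLK11 at chr19:51022216-51028039. Antisense long noncoding RNA genes overlap KLK5, KLK6, KLK7, KLK8 and KLK10, and on its own strand KLK8 shares 6694 bases with an unnamed protein-coding gene and 204 with KLK9, so the counts of KLK8 are uncertain. Whether the counting used the strand is not given in the sources used here, so reads of a gene and of its antisense partner cannot be told apart.

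Promoter stretches are shown to describe the sequence before these neighbouring genes, and any link to the response to olaparib was not tested. The stretches come from RefSeq promoters (GRCh38.p14), read 5′ to 3′ on the minus strand upstream of the main transcript start, and leave out bases that any annotated transcript uses as untranslated sequence. Capitals mark matches to GGGCGG (read as CCGCCC on the opposite strand) and to the NF-kB consensus within the printed bases. The stretches of KLK5, KLK6, KLK7 and KLK10 end 56, 83, 183 and 1 bases before the start, and that of KLK10 begins at 110. Matches in the bases left out are not printed, such as the NF-kB match of KLK7 at 94. The capitals therefore do not compare the genes. The stretches are chr19:50953094-50953288 for KLK5, chr19:50969674-50969841 for KLK6, chr19:50984100-50984167 for KLK7 and chr19:51019710-51019819 for KLK10.
KLK5: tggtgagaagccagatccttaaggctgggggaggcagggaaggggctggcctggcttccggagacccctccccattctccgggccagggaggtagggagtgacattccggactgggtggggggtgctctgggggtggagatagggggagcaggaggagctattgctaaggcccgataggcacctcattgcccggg
KLK6: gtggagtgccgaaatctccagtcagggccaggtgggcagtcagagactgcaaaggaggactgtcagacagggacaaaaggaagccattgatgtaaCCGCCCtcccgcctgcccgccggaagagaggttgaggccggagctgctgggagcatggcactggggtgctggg
KLK7: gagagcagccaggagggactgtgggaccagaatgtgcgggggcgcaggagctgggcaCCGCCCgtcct
KLK10: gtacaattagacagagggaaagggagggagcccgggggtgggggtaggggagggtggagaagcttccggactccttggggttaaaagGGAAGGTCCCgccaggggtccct

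In the full windows of 250 bases before the start, 6 motifs were searched on both strands: the TATA box core TATAA, the GC box GGGCGG that Sp1 binds, the CCAAT box, the AP-1 site TGANTCA, the nuclear receptor core AGGTCA and the NF-kB consensus. TATAA lay 28 bases before the start of KLK5 and 27 before that of KLK7, and 18.9% of all 35116 RefSeq windows held it. GGGCGG occurred at 3 places in the KLK6 window, at 3 in the KLK11 window and at 2 in the KLK7 window, against 42.6% of all windows with at least 1 match. The NF-kB consensus matched at 240 and 23 bases before the KLK10 start and at 94 before the KLK7 start, against 3498 of the 35116 windows. CCAAT matched in KLK7 alone of the 5 windows, against 32.0% of all windows, while TGANTCA and AGGTCA matched in none of them, against 6.6% and 12.1%. A match describes the letters and is not evidence of binding.

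With DMSO the kallikrein genes were far lower in UWB1.289 than in OVCAR3. KLK5, which starts the activation of other kallikreins in skin, had 483, 458, 522 and 517 reads in the 4 OVCAR3 libraries and 13, 13, 0 and 9 in those of UWB1.289. The lowest OVCAR3 library thus lay far above the highest of UWB1.289. In such bulk libraries fewer cells that express a gene and less RNA per cell cannot be told apart. The level was 77.2 ± 3.03 CPM in OVCAR3 and 1.33 ± 0.979 CPM in UWB1.289 (SD, n = 4 each), and edgeR's quasi-likelihood test put KLK5 57.8-fold higher in OVCAR3 (log2 UWB1.289 over OVCAR3 -5.85, SE 0.21, Benjamini-Hochberg adjusted p = 9.4e-21). KLK7, the chymotrypsin-like partner of KLK5 in skin shedding, had 179, 146, 245 and 254 reads in OVCAR3 and 4, 10, 7 and 12 in UWB1.289. It was 25.2-fold higher in OVCAR3 (log2 -4.66, SE 0.22, edgeR adjusted p = 8.85e-18).

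KLK6, a trypsin-like protease known as a serous ovarian carcinoma product, had 207, 221, 253 and 244 reads in OVCAR3 with DMSO and 19, 40, 16 and 37 in UWB1.289. The groups did not overlap, at 36.0 ± 1.98 against 4.23 ± 1.92 CPM (SD, n = 4 each). KLK6 was 8.51-fold higher in OVCAR3 (log2 -3.09, SE 0.18, edgeR adjusted p = 1.9e-15). KLK10, first described as a gene of normal mammary epithelium that is lost in breast cancer cells, had 291, 359, 410 and 428 reads in OVCAR3 and 37, 67, 56 and 78 in UWB1.289. Its level was 57.8 ± 6.69 against 8.98 ± 2.45 CPM, 6.45-fold higher in OVCAR3 (log2 -2.69, SE 0.15, edgeR adjusted p = 1.97e-16).

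KLK11, a trypsin-like kallikrein, and KLK8, known as neuropsin from its role in the brain, were too low for the filter on low counts. KLK11 had 9, 3, 7 and 16 reads in OVCAR3 with DMSO and 0 in every UWB1.289 library, with DMSO or olaparib. Against a floor of 3 counts over the group, the pooled level of KLK11 was at least 12-fold higher in OVCAR3 with DMSO, or 8.39-fold from the lower 95% Poisson limit of its 35 reads. Without replicate 4, which held 16 of them, the fold over the floor was 8.98. KLK8 had 1, 1, 1 and 6 reads in OVCAR3 and 0 in all 4 UWB1.289 libraries with DMSO. Its pooled level was at least 3.1-fold above the same floor, which is 0.113 CPM in UWB1.289, or 1.42-fold from its lower Poisson limit. Replicate 4 held 6 of these 9 reads, and the 3 reads left without it equal the floor, so that no difference was detectable then.

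All 4 members that could be tested were thus called lower in UWB1.289, where a call needed an adjusted p below 0.1, a change beyond 2-fold and an average normalized count above 10. Of the 13366 genes tested between the lines, 19.7% were called lower and 18.7% higher. Those 4 genes also had no overlap between the groups, which held for 69.4% of genes tested, so a gap between the lines was common. The median log2 fold change was -3.87 over the 4 members and -0.02 over all genes tested. Of 8 markers of leukocytes, endothelium and fibroblasts, PTPRC (6.13 against 0.232 CPM), CD14 and PECAM1 passed the test higher in UWB1.289 and COL1A1 lower. CD3E, COL3A1 and DCN had 0 counts in UWB1.289. The summed level was 14.0 to 17.9 CPM in UWB1.289 and 23.4 to 32.2 CPM in OVCAR3, where COL1A1 alone had a mean of 24.3 CPM. The part of these markers in the result was not tested.

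**Figure D1:**
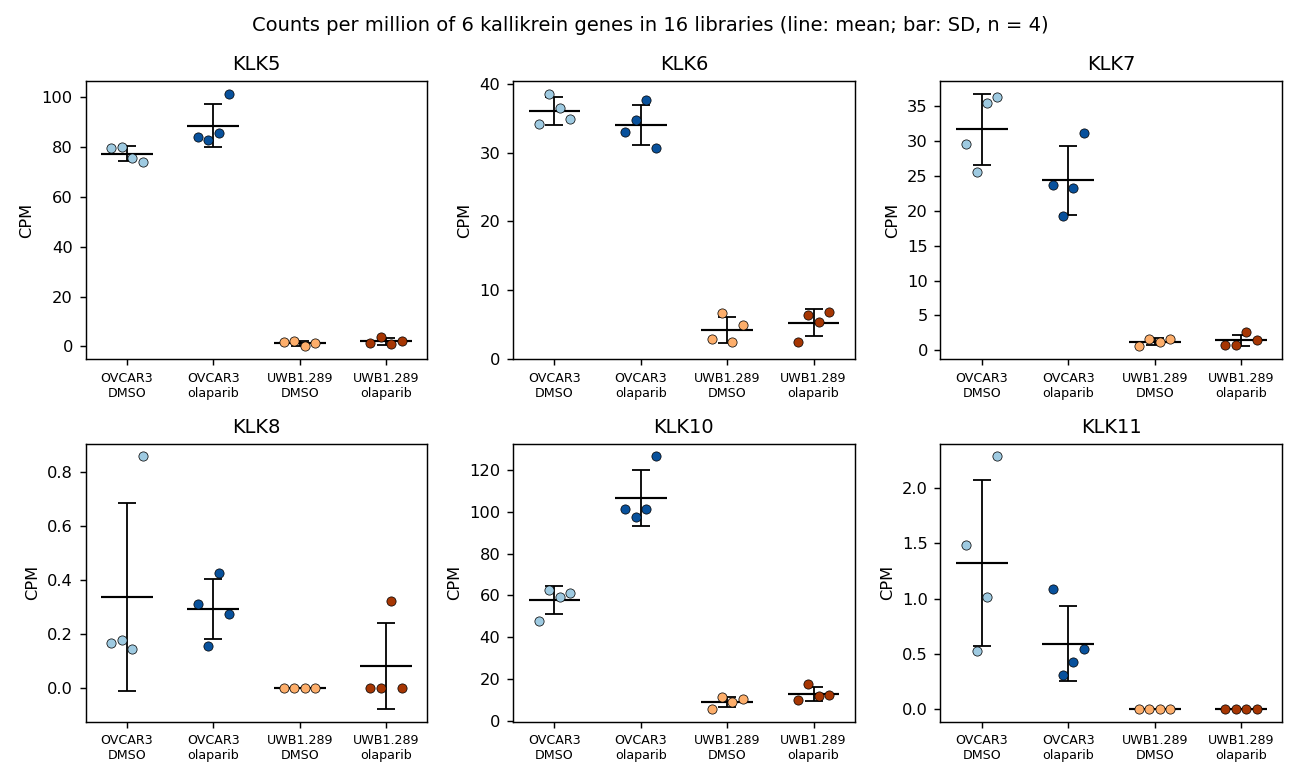
CPM of KLK5, KLK6, KLK7, KLK8, KLK10 and KLK11 in each of the 16 libraries, by cell line and treatment, with the mean as a line and the SD as a bar (n = 4). KLK5, KLK6, KLK7 and KLK10 sit well above UWB1.289 in every OVCAR3 library, and KLK10 rises from 57.8 to 107 CPM with olaparib in OVCAR3.

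Olaparib changed the kallikreins of OVCAR3 unevenly. KLK10 had 655, 627, 713 and 926 reads with olaparib, against 291 to 428 with DMSO. In CPM, the olaparib libraries were at 101.5, 97.6, 101.2 and 126.6 and the DMSO libraries at 48.0, 62.7, 59.2 and 61.2, so the lowest olaparib library exceeded the highest control. KLK10 rose 1.85-fold (log2 0.89, SE 0.10, edgeR adjusted p = 2.27e-06). The change stayed under the 2-fold limit of a call.

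KLK5 moved less. It had 541, 533, 604 and 742 reads with olaparib and 458 to 522 with DMSO, or 88.5 ± 8.69 against 77.2 ± 3.03 CPM (SD, n = 4 each). The groups did not overlap, and KLK5 rose 1.15-fold (log2 0.20, SE 0.09, edgeR adjusted p = 0.0957). That result rested on single libraries: it was lost without any 1 of the 4 DMSO libraries, without olaparib replicate 1 and without olaparib replicate 4, where the log2 fold change was 0.13 (adjusted p = 0.259), and it was also lost in DESeq2 (adjusted p = 0.108).

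KLK7 went the other way, with 153, 124, 164 and 228 reads with olaparib and 146 to 254 with DMSO. The groups overlapped, at 24.4 ± 4.95 against 31.7 ± 5.11 CPM (SD, n = 4 each). KLK7 fell to 0.771 of its control level (log2 -0.38, SE 0.15, edgeR adjusted p = 0.068), and this result was lost without DMSO replicate 3 or 4 or olaparib replicate 1, 2 or 3, where the adjusted p reached 0.22. KLK6 had 213, 223, 265 and 224 reads with olaparib and 207 to 253 with DMSO. Its log2 fold change was -0.08 with a 95% interval from -0.29 to 0.13 (edgeR adjusted p = 0.633), so a change beyond 2-fold was outside the interval.

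KLK11 and KLK8 in OVCAR3 stayed at a few reads. KLK11 had 7, 2, 3 and 4 reads with olaparib against 9, 3, 7 and 16 with DMSO, and the groups overlapped. The pooled ratio of KLK11 was 0.431, with a 95% counting interval from 0.223 to 0.80 that takes no account of the spread between libraries. KLK8 had 2, 1, 3 and 2 reads against 1, 1, 1 and 6, a pooled ratio of 0.839 (interval 0.282 to 2.45), so no difference was detectable at this depth.

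Counted together, 2 of the 4 tested members passed the adjusted p higher with olaparib in OVCAR3, where 15.5% of 13031 genes did, and 1 passed it lower, where 2083 did, with 31.5% passing in either direction. None was called at all 3 limits, against 5.23% of genes. KLK5 and KLK10 were the members without overlap between groups, which held for 25.7% of genes tested. The median log2 fold change was 0.06 over the 4 members and -0.01 over all genes tested. Of 8 epithelial markers, 5 fell and 1 rose in the same comparison, with KRT8 at 0.483 and KRT18 at 0.493 of the DMSO level. The summed level of the 8 markers of other cell types was 23.4 to 32.2 CPM with DMSO and 33.5 to 40.8 CPM with olaparib. COL1A1 made up most of that sum, at a mean of 24.3 and 36.1 CPM, and each other marker was at 0.881 CPM or less in both groups. The part of either list in the kallikrein values was not tested.

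**Figure D2:**
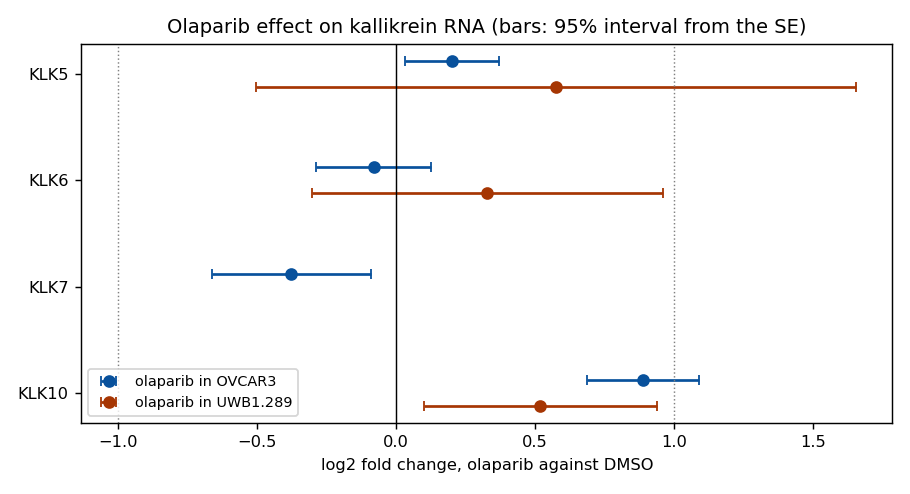
Log2 fold change of KLK5, KLK6, KLK7 and KLK10 with olaparib against DMSO in OVCAR3 and, where testable, in UWB1.289, with 95% intervals and dotted lines at 2-fold. KLK10 in OVCAR3 lies at 0.89, KLK7 is left of 0, and the UWB1.289 intervals are wider.

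The unequal response could also be read within each library, as the ratio of counts of 2 kallikreins, which no scaling of the library affects. The 6 pairs were compared after the values had been seen. The count ratio of KLK10 to KLK5 was 0.602, 0.784, 0.785 and 0.828 in the DMSO libraries of OVCAR3 and 1.21, 1.18, 1.18 and 1.25 with olaparib. The groups were apart by 0.69 on the log2 scale (p = 0.0286 by exact permutation, two-sided, which is the lowest value that 4 against 4 libraries allow, adjusted p = 0.0429 over the 6 pairs). KLK10 to KLK6 shifted by 0.97 and KLK10 to KLK7 by 1.27, and KLK7 to KLK5 by -0.58, each with no overlap and the same exact p. KLK6 to KLK5 (-0.28, exact p = 0.0571) and KLK7 to KLK6 (-0.30, exact p = 0.257) had overlapping groups. The ratios with KLK10 share its counts, so they are not separate results. How often ratios of other gene pairs set the groups apart was not tested. Of single genes tested with olaparib in OVCAR3, 25.7% had no overlap.

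**Figure D3:**
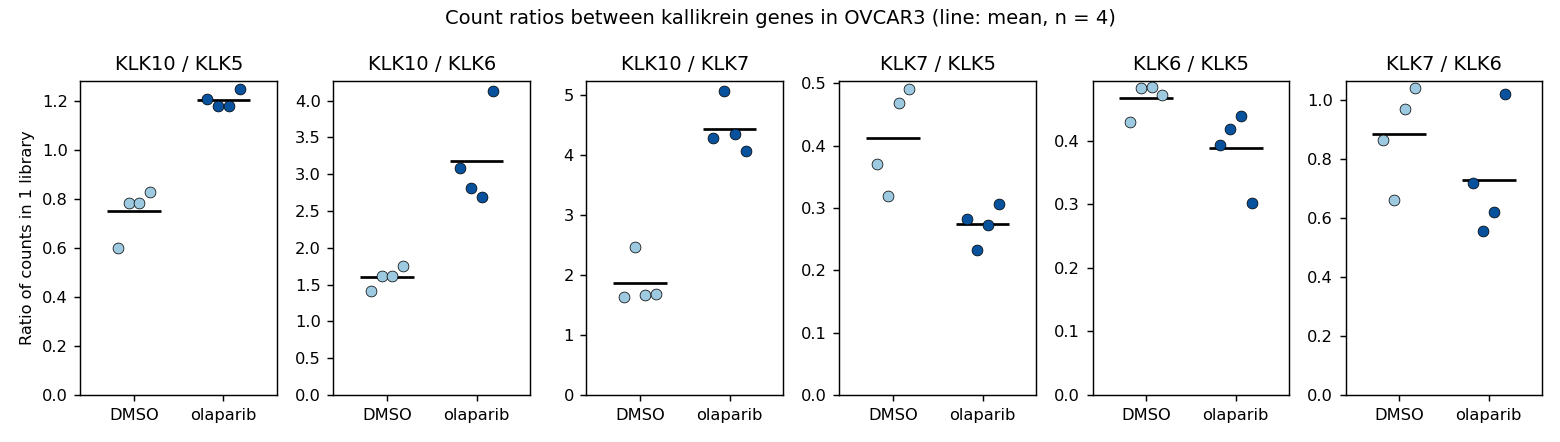
Ratios of the counts of 2 kallikrein genes within each OVCAR3 library, DMSO against olaparib, with the mean as a line (n = 4). The ratios of KLK10 to KLK5, KLK6 and KLK7 are higher in all olaparib libraries, and that of KLK7 to KLK5 is lower in all of them.

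In UWB1.289 the direction of KLK10 with olaparib was the same, at a lower level. It had 59, 100, 73 and 81 reads with olaparib and 37, 67, 56 and 78 with DMSO, with overlapping groups at 12.9 ± 3.43 and 8.98 ± 2.45 CPM (SD, n = 4 each). The log2 fold change was 0.52 (SE 0.21, edgeR adjusted p = 0.14), which did not pass. With the replicate number as a block it was 0.52 (SE 0.17, edgeR adjusted p = 0.0414) and passed. Leaving out olaparib replicate 1 also made it pass (0.63, adjusted p = 0.0669). In the same comparison CD14, a monocyte marker, rose (log2 1.28, edgeR adjusted p = 0.00374), and the summed level of the 8 markers of other cell types was 22.9 to 27.8 CPM with olaparib and 14.0 to 17.9 CPM with DMSO, while CD3E, COL3A1 and DCN were at 0. Their part in the result was not tested.

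The other kallikreins of UWB1.289 held too few reads for a small change to be detectable. KLK6 had 15, 36, 34 and 45 reads with olaparib and 19, 40, 16 and 37 with DMSO, a log2 fold change of 0.33 (95% interval -0.30 to 0.96). KLK5 had 9, 21, 5 and 13 reads against 13, 13, 0 and 9, with 0.58 (interval -0.50 to 1.65). KLK7 had 5, 4, 16 and 10 reads against 4, 10, 7 and 12 and was not tested, with a pooled ratio of 1.15 (counting interval 0.693 to 1.91). KLK8 had 2 reads in 1 olaparib library and 0 elsewhere. None of the 3 tested members passed the adjusted p, which 13.9% of 12748 genes did (7.77% higher and 6.10% lower), and none was called, against 2.21%. DESeq2 also passed none of them, and at an unadjusted edgeR p below 0.05 KLK10 alone passed.

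Whether the response to olaparib differed between the lines was tested over all 16 libraries, with the doses unequal. None of the 4 tested members passed in edgeR or DESeq2, where 10.9% of 14243 genes passed in edgeR. None had an unadjusted p below 0.05 in that edgeR fit, while without the filter on low counts edgeR gave KLK10 an unadjusted p of 0.0308 and an adjusted p of 0.31. For KLK10 the effect in UWB1.289 minus that in OVCAR3 was -0.37 on the log2 scale (95% interval -0.82 to 0.08, edgeR adjusted p = 0.38). The intervals of KLK5 (-0.52 to 1.26), KLK6 (-0.19 to 1.01) and KLK7 (-0.31 to 1.46) also spanned 0. These intervals leave room for differences near or beyond 2-fold in KLK5, KLK6 and KLK7, so the test does not show that the lines responded alike.

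Ordered by mean log2 CPM, each of KLK5, KLK6, KLK7, KLK8, KLK10 and KLK11 stood higher in both OVCAR3 groups than in either UWB1.289 group. Over 18 pairs of neighbouring groups, 7 reached an exact permutation p of 0.0286 (adjusted 0.0735). They were the step between the lines for KLK5, KLK6, KLK7, KLK10 and KLK11, and the OVCAR3 groups for KLK5 and KLK10. Such gaps were common: 69.4% of all genes tested had no overlap between the lines with DMSO, and 25.7% with olaparib in OVCAR3. The neighbours were also set by sorting these same means. For KLK5 and KLK10 the order was OVCAR3 with olaparib, OVCAR3 with DMSO, UWB1.289 with olaparib and UWB1.289 with DMSO, and the latter pair did not differ beyond its spread (exact p = 0.486 and 0.114) in this test, which leaves the pairs aside. KLK10 was higher with olaparib in all 4 pairs of UWB1.289 libraries with the same number. The labels number the libraries without naming pairs, and how many other genes did the same was not counted. With the replicate block, edgeR gave KLK10 the adjusted p = 0.0414 above. For KLK6 and KLK7 the OVCAR3 groups had the opposite order and did not differ beyond their spread (exact p = 0.257 and 0.0857), nor did the UWB1.289 groups. For KLK11 the neighbours that differed were OVCAR3 with olaparib and UWB1.289 with DMSO, and for KLK8 no neighbours did.

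The remaining 10 kallikrein genes of the cluster were nearly silent, and none passed the filter on low counts. KLK3, which encodes prostate-specific antigen, KLK9 and KLK12 had 0 reads in all libraries. KLKP1, a kallikrein pseudogene, had 0, 2, 1 and 0 reads in OVCAR3 with DMSO and 21, 15, 3 and 17 with olaparib. All olaparib libraries thus exceeded every control, and the pooled ratio was 17.6 (95% counting interval 5.73 to 88.0). In UWB1.289 it had 1 read over the DMSO libraries and 7 over those with olaparib. KLK1, the tissue kallikrein that releases kinins, had 4, 4, 2 and 3 reads in OVCAR3 with DMSO and 13, 6, 11 and 12 with olaparib, a pooled ratio of 3.05 (interval 1.61 to 6.19), and 0 in UWB1.289. KLK13 had 13 and 18 reads over the OVCAR3 groups. KLKP1 and KLK1 were singled out after their values were seen. When the filter was dropped, edgeR gave KLKP1 an adjusted p of 2.18e-06 and KLK1 one of 0.0652 in OVCAR3.

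**Figure D4:**
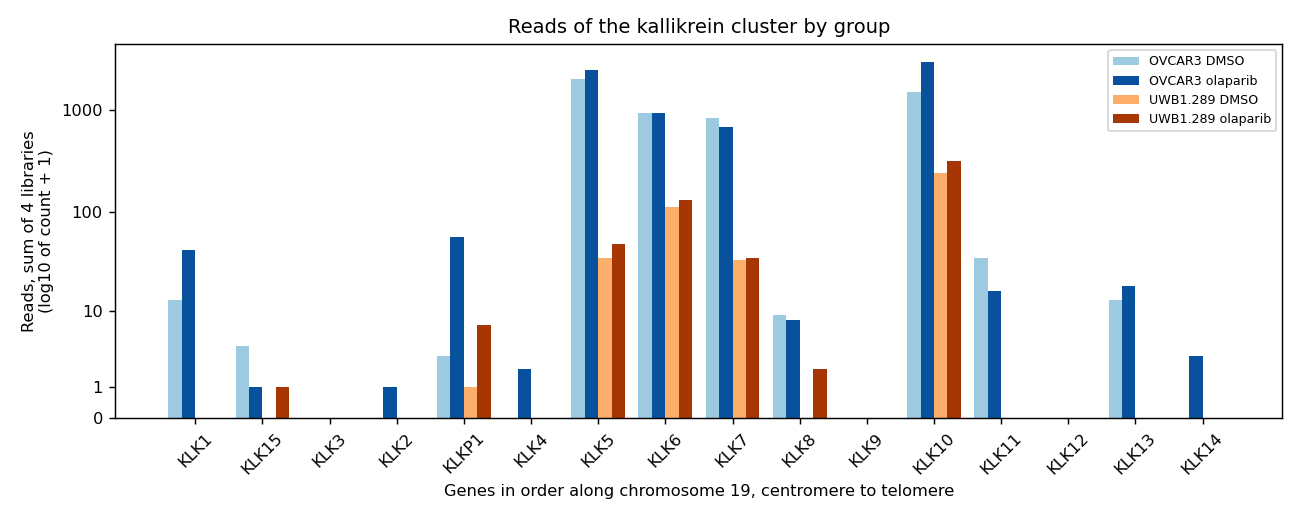
Reads of the 16 kallikrein genes, summed over the 4 libraries of each group, in their order along chromosome 19, on a log10 axis of count + 1. Reads concentrate in KLK5, KLK6, KLK7 and KLK10, all higher in OVCAR3, while KLK8 between them and KLK11 next to KLK10 hold few.

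Of 7 genes that flank the cluster, CTU1, a tRNA-modifying enzyme, was the only one tested. It had 37, 33, 38 and 38 reads in OVCAR3 with DMSO and 46, 56, 49 and 60 with olaparib, with no overlap between groups in CPM. CTU1 rose 1.36-fold (log2 0.45, SE 0.19, edgeR adjusted p rounding to 0.10). It passed just under the limit and was not called. Between the lines its log2 fold change was 0.33 (adjusted p = 0.18), beside -5.85 to -2.69 for KLK5, KLK6, KLK7 and KLK10.

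Genes around the kallikrein pathway were counted from lists of 9 inhibitors, 6 activating proteases, and 12 substrates and receptors. With olaparib in OVCAR3, 2 of 4 tested inhibitors passed higher and 1 lower, none of them called. Of 5 tested proteases 2 passed higher and 2 lower. Over all genes tested in OVCAR3, 15.5% passed higher and 16% lower. PLAT, the tissue plasminogen activator, rose 4.55-fold (log2 2.19, SE 0.20, edgeR adjusted p = 7.54e-08) with no overlap. PLAU, the urokinase that activates plasminogen, had 53, 90, 91 and 68 reads with DMSO and 560, 530, 552 and 94 with olaparib, so olaparib replicate 4 stood near the controls, and its log2 fold change was 2.46 (SE 0.37, adjusted p = 5.47e-05).

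Among the 9 tested substrates and receptors, 3 passed higher and 4 lower in OVCAR3, beside 15.5% and 16% of all genes tested. F2RL1, the protease-activated receptor that several kallikreins can cleave, rose 2.17-fold in OVCAR3 (log2 1.12, SE 0.20, edgeR adjusted p = 0.000244) and 2.48-fold in UWB1.289 (log2 1.31, SE 0.47, adjusted p = 0.0832). In UWB1.289 it had 6, 18, 2 and 12 reads with DMSO and 8, 23, 22 and 35 with olaparib, and the groups overlapped. PLAUR, the urokinase receptor, rose by 1.57 on the log2 scale in OVCAR3 and the matrix protein FN1 by 2.57. DSC1, a desmosomal cadherin, fell by 1.11 (edgeR adjusted p = 0.0798), with 13, 15, 17 and 17 reads with DMSO and 13, 1, 11 and 5 with olaparib. In UWB1.289, 3 of 9 passed higher and 2 lower, beside 7.77% and 6.10% of all genes tested. There IGFBP3, a growth factor carrier, rose by 1.02.

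Between the lines with DMSO, the kallikrein-associated genes split. All 4 tested inhibitors passed lower in UWB1.289, as did 40.1% of all genes tested, and 3 of the 4 were called. SPINT2, an inhibitor of membrane serine proteases, was at a log2 fold change of -1.97 and SERPINA1, the antitrypsin of plasma, at -4.13. HPN, the membrane protease hepsin, was at -3.11, F2RL1 at -2.49 and the adhesion protein CDH1 at -2.27. PLAU (3.11), PLAUR (2.42) and FN1 (7.40) were higher in UWB1.289. The olaparib effect itself differed between the lines, as UWB1.289 minus OVCAR3, for PLAU (-1.85, edgeR adjusted p = 0.0284), PLAT (-1.31, adjusted p = 0.0257), FN1 (-2.37, adjusted p = 2.33e-11) and IGFBP3 (1.53, adjusted p = 1.19e-06). SERPINA1 also passed (2.06, edgeR adjusted p = 0.0666), but on few reads. In UWB1.289 it had 0, 2, 1 and 1 reads with DMSO and 4, 4, 7 and 9 with olaparib, too few for the filter within that line. For KLK5, KLK6, KLK7 and KLK10 the difference did not pass.

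**Figure D5:**
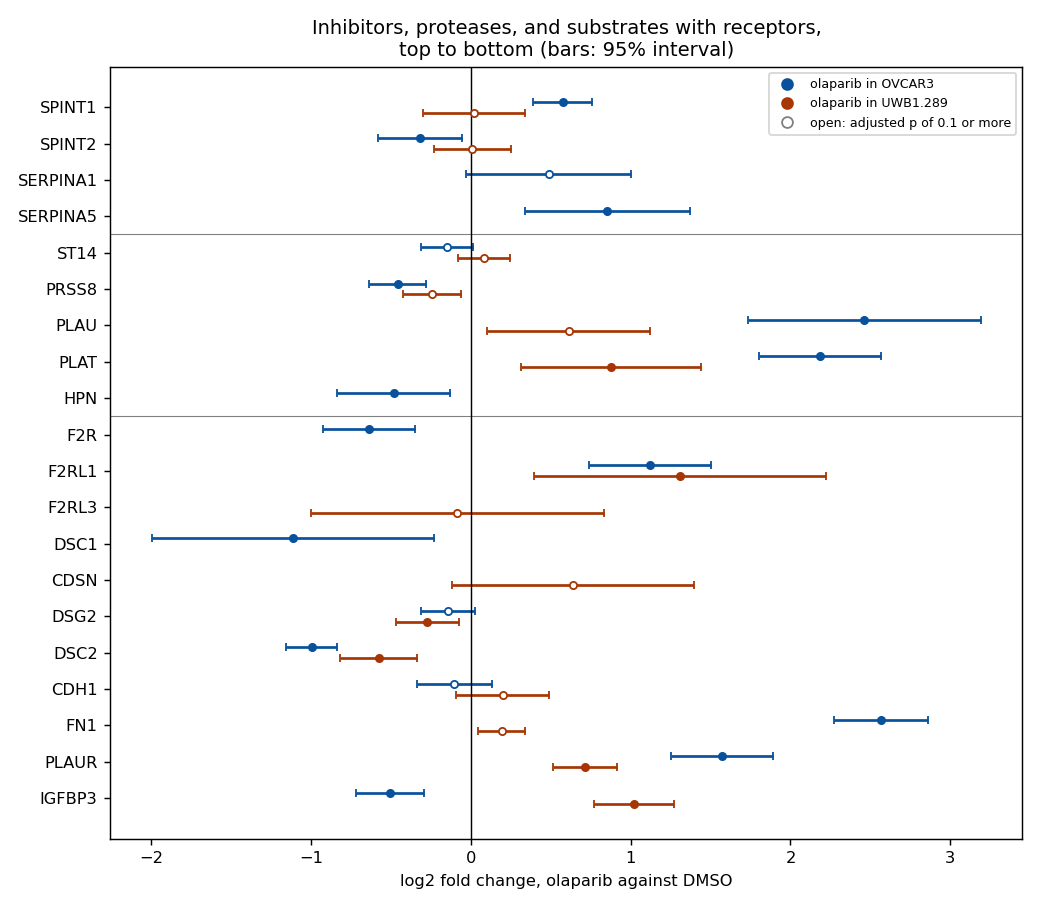
Log2 fold change with olaparib against DMSO in both lines for the tested inhibitors, activating proteases, and substrates and receptors, with 95% intervals; open points did not reach an adjusted p below 0.1. PLAU, PLAT, FN1 and PLAUR lie furthest right in OVCAR3, and F2RL1 is right of 0 in both lines.

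Among 13233 genes with an average normalized count above 10, the pattern most like that of KLK5 over the 16 libraries belonged to CDC37L1 (Pearson r = 0.992), that of KLK6 to LIFR (0.988), that of KLK7 to NF1 (0.994) and that of KLK10 to ADAMTS3 (0.984). The libraries fall into 2 lines with far apart levels. With the mean of each line subtracted, the most alike were CDC37L1 for KLK5 (0.895), PLD6 for KLK6 (0.901), SMC3 for KLK7 (0.868) and QPCT for KLK10 (0.923). Within the 8 OVCAR3 libraries, KLK5 and KLK10 had r = 0.806, while KLK7 and KLK10 had r = -0.477 and KLK5 and KLK6 r = -0.62. Within the 8 UWB1.289 libraries the highest was KLK6 with KLK10, at 0.71. The libraries of a line share its treatment groups, and these values are descriptions.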

How the data were processed

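Gene counts of 16 QuantSeq 3′ mRNA libraries were analysed. After trimming with BBDuk, the authors mapped the reads to hg38 using STAR 2.7.9a, counted them per gene with featureCounts 2.0.0 and a GENCODE annotation, and deposited whole-number counts that had not been normalized. Tests used edgeR 4.0.16 in R 4.3.3 (quasi-likelihood F test after TMM scaling and filterByExpr, with p adjusted by Benjamini-Hochberg over all genes tested). A gene passed the test at an adjusted p below 0.1, and was called when its log2 fold change also exceeded 1 in either direction and its average normalized count 10. Log2 CPM used a prior count of 2. The intervals and floors of counts cover counting error only. Coordinates came from GENCODE 44. DESeq2 1.42.0, other filters and leaving out single libraries were alternatives, and the tests were first tried on simulated data. No pair of the 24 pairs of libraries within groups was identical (lowest chi-square per gene 3.03). Over 9541 genes, UWB1.289 libraries with the same replicate number deviated together from their group means (r from 0.136 to 0.226 in all 4 pairs). Libraries with different numbers had r from -0.211 to 0.152, and 3 of 4 libraries were closest to their own number. The numbers were taken as pairs there, but the main tests were unpaired, and pairs entered only as the replicate block. All 6 members and the lists of related genes were named by rule, and both were chosen with earlier results of these data known. Another list of related genes is not reported here. Related genes named with values were taken from those that met the call limits, with CTU1 added as the only flanking gene tested and with those said to have been singled out afterwards, and for each tested member the 3 genes with the most similar log2 CPM were found.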

Additional observations from a re-analysis of the deposited data

Results flagged for a closer look

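In 4 of the 21 groups of 4 libraries examined, 1 library stood apart from the other 3, with a gap that took up most of the group's range. Chance flags about 1 in 20 groups where values are normally distributed, which the few reads of KLK8 are not. The flags of KLK5 and KLK10 also fell on the same library, so the number of flags does not show an excess over chance. In OVCAR3 with olaparib, replicate 4 had the highest KLK10 level, at 6.99 log2 CPM against 6.61 to 6.67 in the others, and the highest KLK5 level, at 6.67 against 6.38 to 6.43. Without this library the log2 fold change of KLK10 was 0.80 (edgeR adjusted p = 7.82e-09) and that of KLK5 was 0.13 (adjusted p = 0.259). Its deviation was not limited to kallikreins. Over all genes with enough reads, its chi-square per gene against the other 3 was 8.43 to 13, and theirs among themselves was 3.67 to 4.7. In OVCAR3 with DMSO, replicate 4 had KLK8 at 0.22 log2 CPM, from 6 reads against 1 in each of the others. In UWB1.289 with olaparib, replicate 3 had KLK8 at -0.67 log2 CPM, from 2 reads against 0.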

How the results depend on the processing

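KLK5, KLK6, KLK7 and KLK10 were called lower in UWB1.289 than in OVCAR3 in all alternatives run, and KLK10 passed higher with olaparib in OVCAR3 in all 13 (log2 fold change 0.80 to 0.93). The count of kallikreins past the adjusted p with olaparib in OVCAR3 was 3, and it was 1 with all 16 libraries in the fit, 1 at an adjusted p below 0.05 and 1 to 2 when 1 library was left out. With no fold-change threshold 3 were called instead of 0. In UWB1.289 the count was 0, and it was 1 with no filter on low counts, 1 with all 16 libraries, 1 with the replicate block and 0 to 1 when 1 library was left out. KLK10 was the gene gained (adjusted p from 0.0414 to 0.0984 over those fits), and the cause was not tested. The difference between the lines in the olaparib effect turned negative for KLK5, at -0.021 without UWB1.289 DMSO replicate 3 and -0.084 without UWB1.289 olaparib replicate 2 (range -0.084 to 0.665 over 16 fits with 1 library left out), and it passed in no alternative.

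In OVCAR3 libraries with the same replicate number had deviations correlated from 0.032 to 0.167, with 2 of 4 libraries closest to their own number, and between the lines from -0.001 to 0.025, so these numbers were not taken as pairs. With the replicate block KLK5 was at 0.20 in OVCAR3 (edgeR adjusted p = 0.104) and 2 kallikreins passed there. The block changed no kallikrein call, and KLK10 in UWB1.289 was the only other kallikrein to cross the adjusted p limit. The 7 neighbouring groups that differed stayed at 7 with a prior count of 0.5 and with DESeq2 size factors. Leaving out single libraries from the folds of KLK8 and KLK11 over the floor was chosen after seeing the data. A few reads a library limit KLK8, KLK11 and, in UWB1.289, KLK5 and KLK7.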

Other observations

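SPINK5 encodes LEKTI, an inhibitor of KLK5 and KLK7 in skin. It was too low for the filter on low counts, and it was singled out after its values were seen. It had 2, 1, 2 and 3 reads in OVCAR3 with DMSO and 1, 26, 15 and 24 with olaparib, so 3 of the 4 olaparib libraries lay above every control and replicate 1 did not. In UWB1.289 it had 0 reads with DMSO and 1 read in all with olaparib.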
